A study of Mus musculus with 2 samples.

Results

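The mural cells described here were the 387 cells with high Rgs5 in a single-cell RNA-seq study of the lens epithelium of wild-type C57BL/6N mice at postnatal day 2. Rgs5 encodes a regulator of G-protein signaling that marks pericytes and vascular smooth muscle cells. The members were chosen by measured values: at least 10 unique molecular identifiers (UMIs, each standing for 1 captured RNA molecule) of Rgs5, at most 4 UMIs in total of the endothelial genes Cldn5, Cdh5, Flt1 and Ctla2a, and less than 2% of UMIs from the lens α-crystallin genes Cryaa and Cryab. They were taken from 20102 barcodes with 949 to 20198 UMIs, 446 to 4261 genes and at most 15% of UMIs from mitochondrial genes, out of 21739 deposited. There was 1 condition with no treatment or mutant allele, and the replicates were 2 pools, each made from the lenses of several pups. Lenses were freed of surrounding tissue with forceps and trypsin, the capsule with its epithelium was peeled off and digested, and droplet libraries were prepared. The vessel cells were therefore those left on the capsule, and how many were lost in cleaning and straining is not known from these data. Mural cells made up 171 of 11585 kept barcodes in pool 1 (1.48%, exact 95% binomial interval 1.26 to 1.71%) and 216 of 8517 in pool 2 (2.54%, interval 2.21 to 2.89%). The intervals cover counting error only.

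Mural cells wrap the endothelial tube of small vessels: pericytes sit on capillaries within the basement membrane, and smooth muscle cells surround arterioles. Endothelial cells recruit them through platelet-derived growth factor B, which they secrete and which mural cells read through its β receptor, and the wall is then stabilised by Notch and angiopoietin signals. The fetal lens is fed by the tunica vasculosa lentis, a capillary net on the capsule that is supplied by the hyaloid artery and regresses after birth in the mouse, with macrophages taking part in its removal.

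The comparison classes were gated in the same pools on the same few genes. Endothelial cells had at least 10 UMIs of the endothelial genes, at most 4 of Rgs5 and less than 2% α-crystallin (295 cells in pool 1 and 210 in pool 2). Lens cells had at least 2% α-crystallin with at most 4 UMIs each of Rgs5, of the endothelial genes and of the macrophage C1q genes (10937 and 7978 cells). Small classes of 23 and 24 macrophages, gated on at least 10 C1q UMIs, were used for levels only, and 248 kept barcodes fell in no class. Mural cells had a median of 3342 UMIs in pool 1 and 3457 in pool 2, close to the 3423 and 3701.5 of endothelial cells, against 6364 and 8191.5 in lens cells. Levels are given below as CPM, the UMIs of a gene per 1000000 UMIs summed over the cells of a class in 1 pool, first for pool 1 and then for pool 2. The sums held 584915 and 756242 UMIs for mural cells, 1486477 and 1018276 for endothelial cells, and 79843390 and 70217229 for lens cells. A UMI counts the 3′ end of a transcript, so CPM does not scale with transcript length.

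The Rgs5 limit fell in a nearly empty stretch of the distribution. Among kept barcodes within both other limits, 52 in pool 1 and 36 in pool 2 had no Rgs5 UMI, 1 and 2 had 1 to 4, 1 and 0 had 5 to 9, 5 and 10 had 10 to 19, and 44 and 41 had 20 to 39. The lowest member had 12 Rgs5 UMIs, the highest barcode outside had 9, and 0 barcodes lay between 2 and 8. At the other edges, 6 members had the full 4 endothelial UMIs and the lowest sum above that limit was 5. The highest α-crystallin share among members was 1.46%, and the lowest above the limit was 2.01%. Members had a median of 53 and 59 Rgs5 UMIs per cell, and 217 of the 387 had no UMI of the endothelial gate genes. These values chose the cells and are a description.

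**Figure D1:**
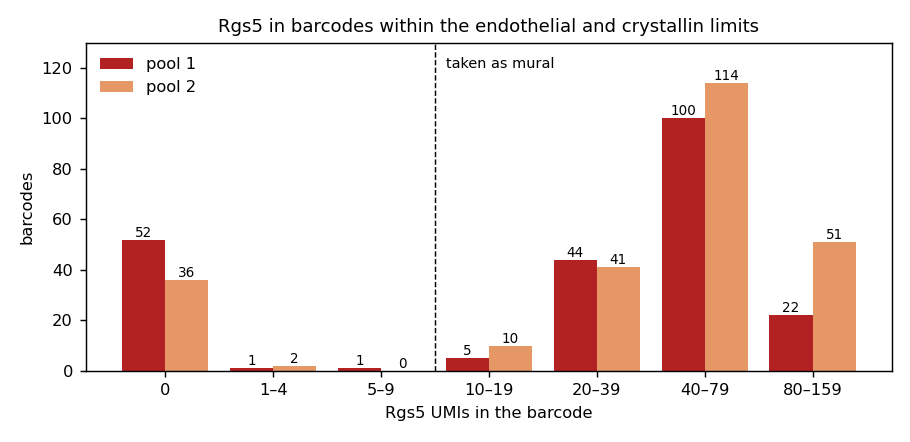
Rgs5 UMIs per kept barcode (horizontal axis) that had at most 4 endothelial gate UMIs and under 2% α-crystallin, as numbers of barcodes (vertical axis) in pool 1 and pool 2. Members lie right of the limit of 10 UMIs, the lowest at 12, with medians of 53 and 59, and the barcodes left of it lie almost all at 0.

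The 5 given markers that were not gated stood far above both other classes. They came with the rule that chose the cells, so their levels are a description and no independent check of the name. The gap of Rgs5, the gated marker, was fixed by the rule: it was at 15970 and 17371 CPM in mural cells, against 3.36 and 9.82 CPM in endothelial cells and 2.39 and 2.85 CPM in lens cells. Mgp, a secreted inhibitor of calcification, was at 5561 and 7681 CPM in mural cells, against 4.04 and 7.86 CPM in endothelial cells and under 1 CPM in lens cells. Serpine2, an inhibitor of thrombin and plasminogen activators, was at 2491 and 2737 CPM in mural cells, against 9.42 and 8.84 CPM in endothelial cells and 2.88 and 2.65 CPM in lens cells. Higd1b was at 1831 and 2005 CPM, Ndufa4l2 at 1826 and 1864 CPM, and Abcc9 at 274 and 377 CPM in mural cells. The highest of these 3 in another class was Abcc9 in endothelial cells, at 7.4 and 3.93 CPM. The gate genes behaved as they were cut: Cldn5, a tight junction claudin, was at 0 and 2.64 CPM in mural cells and 3128 and 3243 CPM in endothelial cells. The cut left Flt1, a VEGF receptor, at 183 and 176 CPM in mural cells, against 1128 and 1143 CPM in endothelial cells.

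The sums of each class in each pool were compared with edgeR's quasi-likelihood test over 10245 genes, with the pool as a block and Benjamini-Hochberg adjustment, and a gene was called at an adjusted p below 0.05. The gate had already separated the classes, so the calls describe the gated cells and are no independent sign that the classes are different types. They rest on 2 pools. Of the genes tested, 1962 were higher (19.2%) and 1765 lower (17.2%) in mural than in endothelial cells, 36.4% in all. Compared with lens cells, 2932 were higher (28.6%) and 2740 lower (26.7%), 55.4% in all. These shares are the background for every list count below. The low-count filter admitted a gene on its counts in 1 class alone, so a gene counted almost only in mural cells entered through them. The direction of such a gene was set by its entry, and the list counts below carry that limit. Against both classes 1322 genes were higher (12.9%). The median log2 fold change over all genes was −0.04 against endothelial cells and −0.02 against lens cells. The gate genes and the 6 markers are left out of all test results below, and every other difference described with "rose", "fell", "higher" or "lower" between classes passed that test unless the sentence says otherwise. Folds are ratios of CPM over both pools, and log2 fold changes (± SE) come from the fit with its scaling factors, so they can differ slightly. Where a class had 0 UMIs, the fold is a lower bound set against 3 UMIs over both pools, and where it had 1 to 3 UMIs the ratio carries a 95% counting interval.

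Genes of pericyte identity rose as a group. All 24 of the list could be tested, and 24 were higher in mural than in endothelial cells and 24 higher than in lens cells, where the backgrounds over all genes were 19.2% and 28.6% in that direction. DESeq2 called 23 against lens cells. The median log2 fold change was 11.82 against endothelial cells, or 5.91 with genes at 0 UMIs set at their bound, and 8.78 against lens cells. These members were picked because they are known in pericytes, and the list was chosen with earlier results of these data known. The count therefore describes the gated cells and is no independent check of their name. The summed level of the list was 8649 and 9334 CPM in mural cells, against 595 and 640 CPM in endothelial cells and 137 and 140 CPM in lens cells.

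Pdgfrb, the receptor through which endothelial platelet-derived growth factor recruits mural cells, was at 786 and 959 CPM in mural cells, with 0 UMIs in endothelial cells of either pool and 3.16 and 3.63 CPM in lens cells. It was at least 738-fold higher than in endothelial cells. With every cell thinned to 1500 UMIs, Pdgfrb was detected in 69.1 and 75.1% of mural cells (89.5 and 91.7% unthinned), in 0% of endothelial cells, and in 0.553 and 0.418% of lens cells. Cspg4, the NG2 proteoglycan of the pericyte surface, was at 530 and 534 CPM in mural cells, with 0 UMIs in endothelial cells and 0.138 and 0.157 CPM in lens cells. Notch3, the Notch receptor of the vessel wall, was at 390 and 406 CPM in mural cells, against 2.02 and 2.95 CPM in endothelial cells and 29.3 and 29.9 CPM in lens cells. Cd248, the endosialin of pericytes and fibroblasts, was at 537 and 583 CPM in mural cells, against 3.36 and 1.96 CPM in endothelial cells. Members that endothelial cells share rose by less: the adhesion molecule Mcam was 2.92-fold higher than in endothelial cells, the transcription factor Ebf1 4.82-fold and the connexin Gja4 6.88-fold. Cygb, a cytoglobin, was the lowest member, at 10.3 and 35.7 CPM in mural cells.

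Rgs4, a further regulator of G-protein signaling, was among the members, and it lies next to the gate gene. Rgs4 was at 186 and 176 CPM in mural cells, with 0 UMIs in endothelial cells and 0.0376 and 0.0997 CPM in lens cells, at least 151-fold higher than in endothelial cells. On mm10, Rgs5 lies at chr1:169655501-169695813 on the plus strand and Rgs4 at chr1:169741477-169747642 on the minus strand, 45.7 kb apart, so they are transcribed towards each other. Their RefSeq promoters (GRCm38.p6, 250 bases before to 50 bases after the start) are shown as the starts of a gated gene and its neighbour, with CG dinucleotides in capitals. The Rgs5 window (chr1:169655251-169655550, plus strand) held 6 CG dinucleotides, a number that 56.4% of 32851 mouse promoters of this length reached or passed. The Rgs4 window (chr1:169747593-169747892, minus strand) held 13, reached by 37.9%, and the median over all promoters was 7.
Rgs5: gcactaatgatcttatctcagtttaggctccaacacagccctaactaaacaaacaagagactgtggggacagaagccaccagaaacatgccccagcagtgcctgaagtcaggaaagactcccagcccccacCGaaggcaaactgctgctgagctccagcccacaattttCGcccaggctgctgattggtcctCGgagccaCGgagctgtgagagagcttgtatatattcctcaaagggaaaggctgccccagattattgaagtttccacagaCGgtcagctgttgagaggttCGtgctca
Rgs4: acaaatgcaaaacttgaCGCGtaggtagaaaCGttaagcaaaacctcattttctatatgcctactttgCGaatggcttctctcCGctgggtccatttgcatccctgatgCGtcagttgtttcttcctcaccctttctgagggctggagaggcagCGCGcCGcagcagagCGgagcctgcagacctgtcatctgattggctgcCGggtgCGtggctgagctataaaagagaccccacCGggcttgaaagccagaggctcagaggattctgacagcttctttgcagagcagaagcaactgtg

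**Figure D2:**
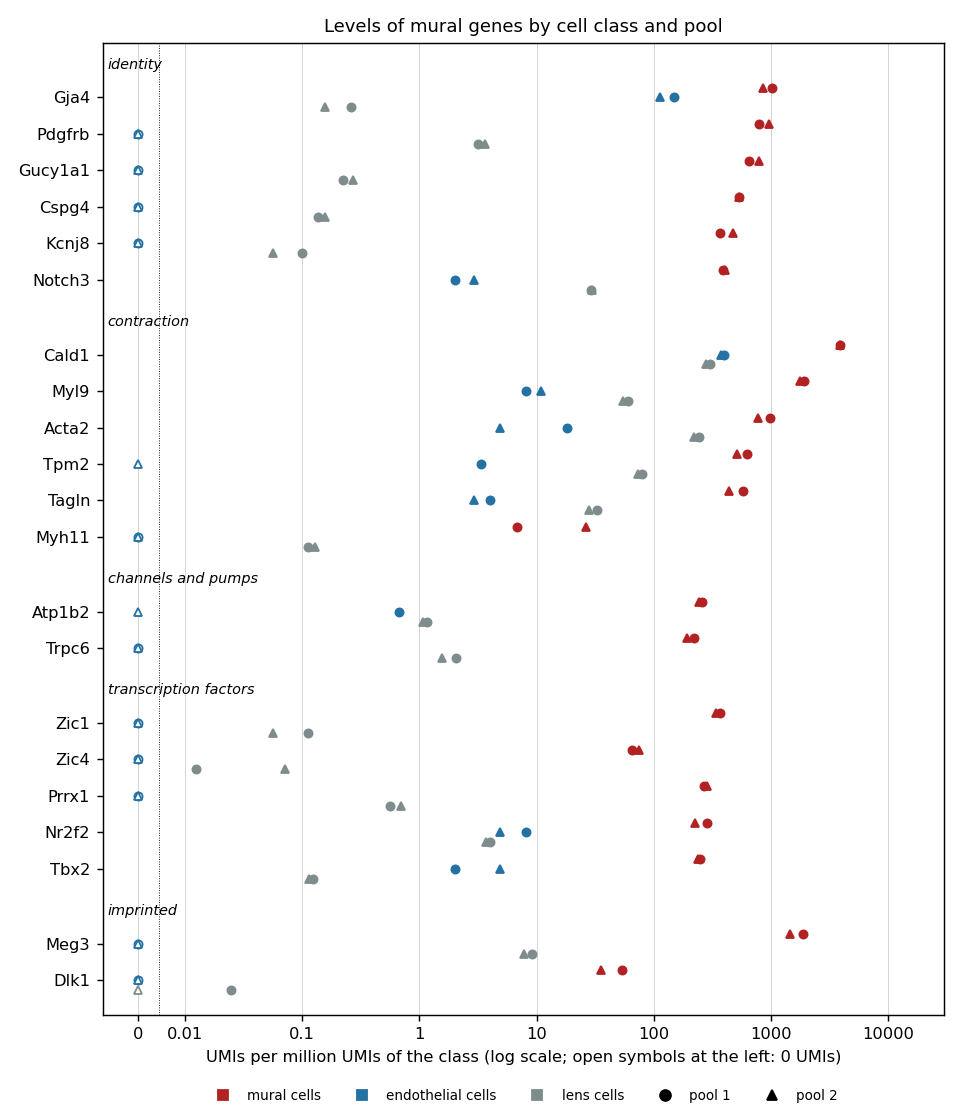
Levels in CPM on a log axis for genes of mural identity, contraction, channels and pumps, transcription factors and imprinted genes in mural, endothelial and lens cells, with a circle for pool 1, a triangle for pool 2, and an open symbol at the left edge where no UMI was counted. Mural symbols lie right of both other classes for most genes shown, such as Pdgfrb at 786 and 959 CPM, and the 2 pools of a class lie close together.

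Most contractile genes with enough counts to test rose, but several late markers of mature smooth muscle were almost absent. Of 19 genes in the list 12 passed the low-count filter, of which 10 were higher and 2 lower than in endothelial cells and 12 higher than in lens cells. The median log2 fold change was 5.50 against endothelial cells (4.10 at the bounds) and 3.73 against lens cells. Cald1, the actin and calmodulin-binding caldesmon, was at 3866 and 3852 CPM in mural cells, against 393 and 374 CPM in endothelial cells and 303 and 280 CPM in lens cells. Myl9, a regulatory light chain of smooth muscle myosin, was at 1918 and 1755 CPM in mural cells, against 8.07 and 10.8 CPM in endothelial cells and 60.3 and 54.1 CPM in lens cells, a log2 fold change of 7.71 ± 0.16 (edgeR adjusted p = 7.6e-17) and 4.84 ± 0.10. Acta2, smooth muscle α-actin, was at 980 and 767 CPM in mural cells, against 18.2 and 4.91 CPM in endothelial cells and 243 and 218 CPM in lens cells. Lens cells thus carried far more Acta2 than endothelial cells did, and the mural excess over them was only 3.72-fold. The log2 fold change of Acta2 against endothelial cells was 6.19 over both pools and 7.32 in pool 2 alone. Tagln (transgelin, an actin-binding protein) was 138-fold higher than in endothelial cells and 16.3-fold higher than in lens cells. Mylk, the myosin light chain kinase that triggers contraction, was 26.5-fold and 182-fold higher. Des (desmin, the intermediate filament of muscle) was at 135 and 177 CPM in mural cells, with 0 UMIs in endothelial cells and 0.351 and 0.214 CPM in lens cells.

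At the other end, Myh11, the heavy chain of smooth muscle myosin, had 4 and 20 UMIs in all mural cells of the 2 pools (6.84 and 26.4 CPM). Cnn1 (calponin), Pln (phospholamban) and Ramp1 had 0 UMIs in mural cells, which allows up to 2.24 CPM over both pools. Myocd, the coactivator that drives the smooth muscle program, had 1 and 2 UMIs. Smtn (smoothelin) was at 25.6 and 21.2 CPM in mural cells, against 73.3 and 66.8 CPM in endothelial cells, and fell with a log2 fold change of −1.53 ± 0.26. Sncg was lower as well, at 5.13 and 1.32 CPM in mural cells, against 33.6 and 32.4 CPM in endothelial cells.

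The Myl9 promoter is shown for its CArG box, the motif bound by serum response factor and shared by many muscle genes. The motif was searched on both strands in a strict form only: CC, a core of only A or T, then GG. Of 16 promoters of 15 list genes in the table, the Myl9 promoter was the single one with a strict match. The match is in capitals (GRCm38.p6, chr2:156775214-156775513, plus strand). It began 161 bases before the start. Of all 32851 promoters, 1.63% held the motif. The window of Acta2 held none, which says only that the strict form is not in that window. Forms with another base in the core were not searched, so CArG boxes of that kind could lie in any of these windows.
Myl9: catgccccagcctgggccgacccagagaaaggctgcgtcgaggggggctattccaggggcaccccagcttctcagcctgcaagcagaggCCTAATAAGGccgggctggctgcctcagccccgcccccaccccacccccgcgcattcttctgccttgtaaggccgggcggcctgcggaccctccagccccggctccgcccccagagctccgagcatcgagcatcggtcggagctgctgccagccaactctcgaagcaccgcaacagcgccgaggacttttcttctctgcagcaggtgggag

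Among platelet-derived growth factor genes, 4 of 6 could be tested, of which 1 was higher and 1 lower than in endothelial cells and 2 higher and 2 lower than in lens cells. The β receptor gene Pdgfrb, higher than in both classes, was counted with the pericyte list and is not among these. Pdgfb, the ligand of the β receptor, was at 23.9 and 7.93 CPM in mural cells, against 163 and 265 CPM in endothelial cells. Its log2 fold change was −3.76 ± 0.32 over both pools, −4.99 in pool 2 alone and −2.72 in pool 1 alone. Pdgfa was the ligand with the higher mural level, at 150 and 127 CPM in mural cells, against 18.2 and 13.7 CPM in endothelial cells and 63.7 and 58.6 CPM in lens cells. The calls against lens cells were Pdgfa and Pdgfb, higher, and Pdgfra and Pdgfrl, lower, the last not under every alternative. The Pdgfa receptor gene Pdgfra had 1 UMI in all mural cells and was at 94.9 and 102 CPM in lens cells. Ligand and receptor thus lay in different classes in both cases, with Pdgfb in endothelial and Pdgfrb in mural cells, and Pdgfa highest in mural and Pdgfra in lens cells.

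Of 15 Notch pathway genes 14 were tested, of which 1 was higher and 7 were lower than in endothelial cells, with a median log2 fold change of −0.47, and 7 were higher and 5 lower than in lens cells. The ligand Dll4 was at 8.55 and 6.61 CPM in mural cells, against 193 and 215 CPM in endothelial cells (log2 fold change −4.70 ± 0.32). The ligand Jag1 was at 127 and 147 CPM in mural cells, against 118 and 117 CPM in endothelial cells, a difference that did not pass the test (log2 fold change 0.30 ± 0.16, edgeR adjusted p = 0.17). The receptor Notch1 did not pass either, at 197 and 179 CPM in mural cells and 227 and 218 CPM in endothelial cells (adjusted p = 0.31). Lfng and Mfng, glycosyltransferases that tune Notch receptors, had 0 UMIs and at most 3.42 CPM in mural cells, against up to 22.6 and 201 CPM in endothelial cells. Among target genes of the pathway, Heyl was at 316 and 282 CPM in mural cells with 0 UMIs in endothelial cells, Hey2 at 42.7 and 59.5 CPM in mural cells, against 5.38 and 8.84 CPM in endothelial cells, and Hes1 at 262 and 298 CPM in mural cells, against 662 and 645 CPM in endothelial cells. The single higher member of the list was Hey2. Heyl and the receptor Notch3 were counted with the pericyte list, so the counts and the median above leave them out. Both were higher than in endothelial cells, Notch3 with a log2 fold change of 7.43.

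Of 17 genes of VEGF and angiopoietin signaling 15 were tested, of which 5 (Pgf, Angpt1, Angpt2, Angptl2 and Angptl4) were higher and 8 lower than in endothelial cells and 12 higher and 2 (Vegfa and Vegfb) lower than in lens cells. Angpt1, the activating ligand of the endothelial receptor Tie2, was at 25.6 and 41.0 CPM in mural cells (15 and 31 UMIs), with 0 UMIs in endothelial cells and 0.288 and 0.313 CPM in lens cells, at least 28.6-fold higher than in endothelial cells. Its receptor gene Tek was at 22.2 and 27.8 CPM in mural cells, against 135 and 181 CPM in endothelial cells. Angpt2, the ligand linked to vessel remodelling, was at 85.5 and 64.8 CPM in mural cells, against 6.73 and 33.4 CPM in endothelial cells, and its log2 fold change of 2.10 ± 0.40 was 3.69 in pool 1 alone and 1.01 in pool 2 alone. Pgf, a ligand of the Flt1 receptor, was at 111 and 55.5 CPM in mural cells, against 1.35 and 0.982 CPM in endothelial cells, a ratio of 66.6 (95% counting interval 22.2 to 328). Kdr, the main VEGF receptor, was at 27.4 and 38.3 CPM in mural cells, against 723 and 810 CPM in endothelial cells. Vegfa was low throughout, at 6.84 and 6.61 CPM in mural cells, 2.69 and 3.93 CPM in endothelial cells and 20.2 and 23.7 CPM in lens cells.

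**Figure D3:**
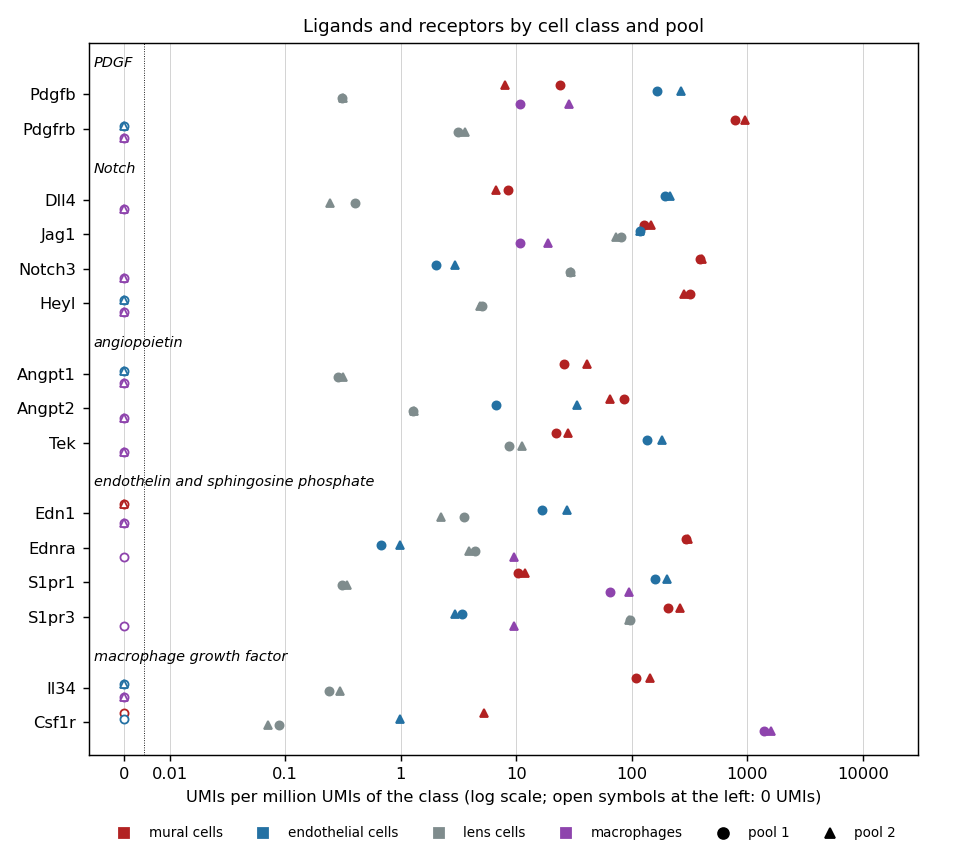
Levels in CPM on a log axis of ligands and their receptors in mural, endothelial and lens cells and macrophages, circles for pool 1, triangles for pool 2 and open symbols at the left edge for 0 UMIs. Pdgfb lay highest in endothelial cells and Pdgfrb in mural cells, and Il34 was counted mainly in mural cells while its receptor gene Csf1r lay in macrophages at 1394 and 1584 CPM.

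Receptors and effectors that set vessel tone were called in both directions against endothelial cells. The backgrounds over all genes were 19.2% higher and 17.2% lower against endothelial cells, and 28.6% and 26.7% against lens cells. Of 39 vasoactive receptors and G-protein regulators 29 were tested, with 14 higher and 10 lower than in endothelial cells (median log2 fold change 0.98) and 24 higher and 1 lower than in lens cells (median 3.29), the lower one being the adrenergic receptor Adra2a. Ednra, the endothelin receptor that contracts vessels, was at 292 and 308 CPM in mural cells, against 0.673 and 0.982 CPM in endothelial cells and 4.40 and 3.92 CPM in lens cells, a ratio to endothelial cells of 377 (95% counting interval 104 to 3126). Its ligand gene Edn1 had 0 UMIs in mural cells and was at 16.8 and 27.5 CPM in endothelial cells. F2r, the thrombin receptor, was at 581 and 698 CPM in mural cells and was 21.3-fold higher than in endothelial and 9.53-fold higher than in lens cells. Tbxa2r, the thromboxane receptor, was 15.1-fold and 46.0-fold higher. The sphingosine 1-phosphate receptors split: S1pr3 was at 207 and 263 CPM in mural cells, against 3.36 and 2.95 CPM in endothelial cells, and S1pr1 at 10.3 and 11.9 CPM in mural cells, against 160 and 203 CPM in endothelial cells. Both subunits of the nitric oxide receptor, counted with the pericyte list, were high, with Gucy1a1 at 645 and 783 CPM in mural cells and 0 UMIs in endothelial cells, and Gucy1b1 at 462 and 508 CPM in mural cells and 9.42 and 5.89 CPM in endothelial cells. Prkg1, the cGMP-dependent kinase downstream of it, was 11.5-fold higher than in endothelial cells and 2.04-fold higher than in lens cells. Rgs16 was 36.5-fold and 76.1-fold higher.

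Of 24 channel and pump genes 17 were tested, with 14 higher and 2 lower than in endothelial cells (median log2 fold change 4.55, or 3.87 at the bounds) and 15 higher and 1 lower than in lens cells (median 4.49). Some, such as Trpc6, passed the low-count filter only through mural cells, so their direction was set by how they entered. Kcnj8, counted with the pericyte list, is the pore subunit of the ATP-sensitive potassium channel of pericytes and was at 364 and 472 CPM in mural cells (213 and 357 UMIs), with 0 UMIs in endothelial cells and 0.100 and 0.0570 CPM in lens cells. Thinned to 1500 UMIs, 37.0 and 54.1% of mural cells had a Kcnj8 UMI, against 0% of endothelial cells and 0.00921 and 0.0127% of lens cells. Abcc9, its regulatory subunit and a given marker, was described above. The 2 subunits of the channel are neighbours on mm10, Kcnj8 at chr6:142564837-142571614 and Abcc9 at chr6:142587862-142702315, both on the minus strand and 16.2 kb apart. Atp1b2, a subunit of the sodium pump, was at 256 and 241 CPM in mural cells, against 0.673 and 0 CPM in endothelial cells. Trpc6, a cation channel opened by receptor signaling, was at 219 and 193 CPM in mural cells and at least 171-fold higher than in endothelial cells, which had 0 UMIs. Slc12a2, the sodium, potassium and chloride cotransporter, was 12-fold higher than in endothelial and 16.8-fold higher than in lens cells. The calcium channel Cacna1c was at 44.5 and 41.0 CPM in mural cells, against 0.673 and 0.982 CPM in endothelial cells. Kcnj2, an inward rectifier of capillary endothelium, ran the other way, with 0 UMIs in mural cells and 35.0 and 75.6 CPM in endothelial cells, at least 23.0-fold lower. Itpr3, an intracellular calcium release channel, was the other lower gene, with 0 UMIs in mural cells.

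The RefSeq promoters of Kcnj8 and Abcc9 (GRCm38.p6) are printed because the genes encode the 2 parts of 1 channel, again with CG dinucleotides in capitals. The Kcnj8 window (chr6:142571565-142571864, minus strand) held 9 CG dinucleotides, a number reached by 45.8% of all promoters, and the Abcc9 window (chr6:142702225-142702524, minus strand) held 16, reached by 33%.
Kcnj8: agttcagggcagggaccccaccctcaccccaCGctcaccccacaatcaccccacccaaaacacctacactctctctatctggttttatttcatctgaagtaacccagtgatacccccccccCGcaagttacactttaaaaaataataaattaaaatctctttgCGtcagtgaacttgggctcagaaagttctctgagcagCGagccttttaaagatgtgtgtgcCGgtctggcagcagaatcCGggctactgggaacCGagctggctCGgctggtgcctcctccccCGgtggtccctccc
Abcc9: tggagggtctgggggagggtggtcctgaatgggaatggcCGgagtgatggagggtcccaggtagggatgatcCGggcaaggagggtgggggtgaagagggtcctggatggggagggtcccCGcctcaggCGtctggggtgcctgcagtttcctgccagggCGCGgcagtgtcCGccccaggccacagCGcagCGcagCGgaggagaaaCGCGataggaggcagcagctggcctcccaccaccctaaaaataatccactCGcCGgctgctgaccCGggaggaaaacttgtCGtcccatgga

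Paralogs of the respiratory chain were compared in pairs, and the common form was low in 1 of 3 pairs. Ndufa4l2, a given marker, was at 1826 and 1864 CPM in mural cells, whereas its paralog Ndufa4, a subunit of cytochrome c oxidase, was at 54.7 and 54.2 CPM in mural cells, against 491 and 512 CPM in endothelial cells and 599 and 685 CPM in lens cells. The log2 fold change of Ndufa4 was −3.15 ± 0.14 against endothelial cells (edgeR adjusted p = 3.3e-12) and −3.72 ± 0.14 against lens cells. Cox4i2, the isoform of oxidase subunit 4 known from lung and hypoxic cells, was at 383 and 389 CPM in mural cells, against 1.35 and 0 CPM in endothelial cells and 4.78 and 4.47 CPM in lens cells. Here the common isoform did not fall: Cox4i1 was at 2192 and 2079 CPM in mural cells, against 1091 and 1093 CPM in endothelial cells and 1037 and 1109 CPM in lens cells. For Higd1b, a given marker, the paralog Higd1a was at 135 and 106 CPM in mural cells and 119 and 131 CPM in endothelial cells, with no call (edgeR adjusted p = 0.99), and lower than the 163 and 187 CPM of lens cells. Epas1, which encodes the hypoxia-inducible factor HIF-2α, was at 718 and 759 CPM in mural cells, against 537 and 605 CPM in endothelial cells and 0.789 and 0.741 CPM in lens cells. Hif1a, for HIF-1α, was at 104 and 88.6 CPM in mural cells and 118 and 120 CPM in endothelial cells (adjusted p = 0.24), against 445 and 458 CPM in lens cells. Of the 20 genes of this list 15 were tested, with 8 higher and 1 (Ndufa4) lower than in endothelial cells and 8 higher and 6 lower than in lens cells.

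The glucose transporters also differed by isoform. Slc2a1, the transporter of barrier endothelium and lens, was at 20.5 and 23.8 CPM in mural cells, against 2504 and 2405 CPM in endothelial cells and 775 and 676 CPM in lens cells (log2 fold change −6.71 ± 0.15 and −5.17 ± 0.15). Slc2a3 was at 34.2 and 39.7 CPM in mural cells, with 0 UMIs in endothelial cells and 0.376 and 0.171 CPM in lens cells. Mural levels of both were within a range of 20.5 to 39.7 CPM, so the mural transporter level summed over the 2 genes was far below that of either other class. Of 23 glycolysis genes 21 were tested, with 9 higher and 4 (Slc2a1, Pfkfb3, Pkm and Pdk1) lower than in endothelial cells and 4 (Slc2a3, Hk1, Pfkp and Ldhb) higher and 14 lower than in lens cells (median log2 fold changes 0.40 and −1.0).

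**Figure D4:**
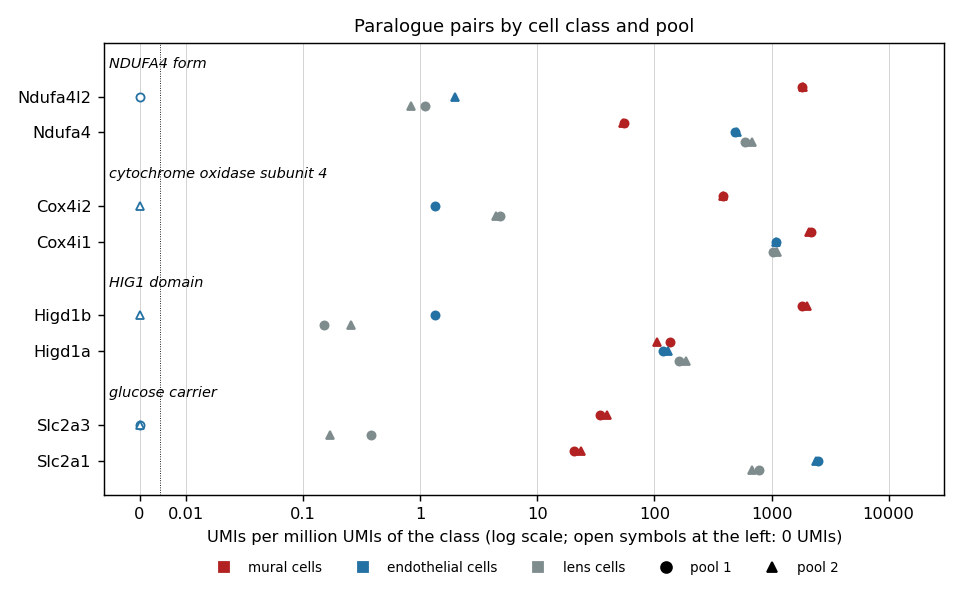
Levels in CPM on a log axis of 4 pairs of paralogs (Ndufa4l2 and Ndufa4, Cox4i2 and Cox4i1, Higd1b and Higd1a, Slc2a3 and Slc2a1) in mural, endothelial and lens cells, with circles for pool 1, triangles for pool 2 and open symbols at the left edge for 0 UMIs. Ndufa4 lay at 54.7 and 54.2 CPM in mural cells and at 491 CPM or more in both other classes, while Cox4i1 was highest in mural cells.

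Basement membrane genes divided by chain. All 19 of the list were tested, with 11 higher and 6 lower than in endothelial cells (median log2 fold change 1.05) and 11 higher and 4 lower than in lens cells (median 0.90, or 1.11 at the bounds). Col4a1, a chain of type IV collagen, was at 5185 and 6040 CPM in mural cells, against 1777 and 2075 CPM in endothelial cells and 1944 and 2034 CPM in lens cells, 2.99-fold and 2.85-fold higher. Its partner Col4a2 rose 1.86-fold and 2.10-fold. Lama4, the laminin α4 chain of vessels, was at 308 and 320 CPM in mural cells, against 155 and 155 CPM in endothelial cells. Col18a1 and Col15a1, the collagens that carry endostatin-type domains, were instead endothelial. Col18a1 was at 22.2 and 39.7 CPM in mural cells, against 1697 and 1512 CPM in endothelial cells, and Col15a1 had 0 UMIs in mural cells, against 412 and 412 CPM in endothelial cells. The log2 fold change of Col18a1 was −5.58 over both pools, −5.19 in pool 2 alone and −6.21 in pool 1 alone. Hspg2 (perlecan) was lower than in both classes, at 88.9 and 86.0 CPM in mural cells, against 573 and 618 CPM in endothelial and 341 and 376 CPM in lens cells. Sparc, a matrix protein that binds collagen IV, was at 2575 and 2344 CPM in mural cells, against 4802 and 4566 CPM in endothelial cells, with no call against lens cells at 2374 and 2081 CPM.

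Of 26 interstitial matrix genes 15 were tested, with 9 higher and 2 (Fbln2 and Eln) lower than in endothelial cells and 9 higher and 4 (Col6a3, Fbln1, Mfap4 and Loxl1) lower than in lens cells. Bgn, the small proteoglycan biglycan, was at 988 and 928 CPM in mural cells, against 235 and 175 CPM in endothelial cells and 1.09 and 0.741 CPM in lens cells. The fibrillar collagen genes Col1a2 and Col3a1 were at 303 and 323 CPM and at 268 and 308 CPM in mural cells, and at under 3 CPM in both other classes. Dcn (decorin) and Lum (lumican), defining genes of fibroblasts, had 0 UMIs. The 10 fibroblast markers summed to 768 and 801 CPM in mural cells, carried by Col1a2, Col3a1 and Ogn, with 5 of the 10 at 0 UMIs in each pool.

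Among 20 tested of 24 proteases and inhibitors, 12 were higher and 4 lower than in endothelial cells, and 15 higher and 5 lower than in lens cells. Plat, tissue plasminogen activator, was at 600 and 672 CPM in mural cells, against 66.6 and 32.4 CPM in endothelial cells and 3.69 and 3.1 CPM in lens cells. Its log2 fold change against endothelial cells was 3.70 over both pools and 4.43 in pool 2 alone. Plat and Serpine2, an inhibitor of plasminogen activators, were thus both high in the same cells. Timp2, an inhibitor of matrix metalloproteinases, was 20.2-fold higher than in endothelial and 1.98-fold higher than in lens cells. Aspn (asporin) and Postn (periostin), matrix proteins of connective tissue, were at 181 and 227 CPM and at 301 and 283 CPM in mural cells, with 0 UMIs in endothelial cells.

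Transcription factors of the neural crest and periocular mesenchyme, from which mural cells of the front of the eye derive, were tested for 32 of 43 genes. Of these 20 were higher and 8 lower than in endothelial cells (median log2 fold change 2.89), 23 higher and 2 lower than in lens cells (median 5.82), and 18 higher than in both. Zic1, a zinc finger factor of the neural crest and brain, was at 369 and 339 CPM in mural cells (216 and 256 UMIs), with 0 UMIs in endothelial cells and 0.113 and 0.0570 CPM in lens cells, at least 294-fold higher than in endothelial cells. Prrx1, a mesenchymal homeobox gene, was at 270 and 284 CPM in mural cells, with 0 UMIs in endothelial cells and 0.564 and 0.698 CPM in lens cells. Nr2f2, a nuclear receptor of veins and mesenchyme, was 37.1-fold and 65.4-fold higher. Tbx2, a T-box factor, was at 250 and 239 CPM in mural cells, against 2.02 and 4.91 CPM in endothelial cells and 0.125 and 0.114 CPM in lens cells. Foxs1, a forkhead gene of pericytes, was at 191 and 172 CPM in mural cells, with 0 UMIs in endothelial cells. Foxc1, the forkhead gene of anterior eye development, was at 226 and 226 CPM in mural cells, against 90.8 and 105 CPM in endothelial cells and 0.551 and 0.498 CPM in lens cells.

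Twist1 and Tfap2b, further genes of periocular and cranial mesenchyme, were lower in level but had 0 UMIs in endothelial cells, with 61.5 and 74.1 CPM and 41.0 and 62.1 CPM in mural cells. Among the 8 that fell were factors of endothelium and blood flow. Klf2 was at 327 and 254 CPM in mural cells, against 1061 and 1286 CPM in endothelial cells, Klf4 was at 54.7 and 38.3 CPM in mural cells, against 411 and 460 CPM in endothelial cells, and Sox18 had 0 UMIs in mural cells, against 188 and 300 CPM in endothelial cells. Of the 2 that fell against lens cells, Meis1 and Meis2, Meis2 had 0 UMIs in mural cells and was at 92.6 and 86.1 CPM in lens cells.

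Zic4 was taken up after its values were seen, since it lies beside Zic1. It was at 65.0 and 75.4 CPM in mural cells with 0 UMIs in endothelial cells and 0.0125 and 0.0712 CPM in lens cells, at least 59.1-fold higher than in endothelial cells. On mm10 Zic1 lies at chr9:91358058-91365810 on the minus strand and Zic4 at chr9:91362413-91389348 on the plus strand, so their annotated spans overlap by 3398 bases. The overlap holds the annotated starts of both genes, whereas UMIs count the 3′ ends of transcripts. Whether the counting used strand is not given in the sources used here, so any reads from the overlap may not be told apart. The RefSeq promoters (GRCm38.p6) of this divergent pair are shown with CG dinucleotides in capitals, since they differed in base composition. The Zic1 window (chr9:91365719-91366018, minus strand) held 31 CG dinucleotides, reached by 10.6% of all promoters, and the Zic4 window (chr9:91368722-91369021, plus strand) held 8, reached by 48.6%.
Zic1: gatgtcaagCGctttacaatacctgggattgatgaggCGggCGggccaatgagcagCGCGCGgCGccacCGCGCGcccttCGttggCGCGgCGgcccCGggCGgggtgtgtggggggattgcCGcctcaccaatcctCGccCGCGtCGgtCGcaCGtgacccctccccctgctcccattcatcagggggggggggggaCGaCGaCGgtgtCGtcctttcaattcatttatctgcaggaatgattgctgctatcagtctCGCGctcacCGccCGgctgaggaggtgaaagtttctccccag
Zic4: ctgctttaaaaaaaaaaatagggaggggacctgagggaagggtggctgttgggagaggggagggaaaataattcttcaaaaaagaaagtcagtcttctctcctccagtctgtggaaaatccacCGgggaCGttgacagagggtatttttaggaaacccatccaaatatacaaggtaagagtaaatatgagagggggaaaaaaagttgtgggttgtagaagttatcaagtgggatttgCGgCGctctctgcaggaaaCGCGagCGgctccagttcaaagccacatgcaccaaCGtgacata

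Imprinted growth genes, expressed from 1 parental copy, were tested for 13 of 14, with 10 higher and 1 lower than in endothelial cells and 7 higher and 6 lower than in lens cells. The lower one was Grb10, an adaptor of insulin signaling (106 and 80.7 CPM in mural cells, 144 and 140 CPM in endothelial cells). Meg3, a long noncoding RNA, was at 1886 and 1457 CPM in mural cells, with 0 UMIs in endothelial cells and 9.08 and 7.88 CPM in lens cells, at least 1373-fold higher than in endothelial cells. Thinned to 1500 UMIs, Meg3 was detected in 87.9 and 78.5% of mural cells (94.2 and 92.6% unthinned), in 0% of endothelial cells, and in 0.921 and 0.671% of lens cells. Dlk1, the Notch-like gene of the same imprinted region, 77.7 kb from Meg3 on chromosome 12, was at 53.0 and 35.7 CPM in mural cells (31 and 27 UMIs) and had 0 UMIs in endothelial cells. Cdkn1c, an inhibitor of cyclin-dependent kinases, was between the classes, at 532 and 637 CPM in mural cells, against 65.3 and 75.6 CPM in endothelial cells and 2567 and 2590 CPM in lens cells. Peg3 did not differ from endothelial cells beyond the test (54.7 and 39.7 CPM against 45.1 and 45.2 CPM, edgeR adjusted p = 0.71) and was far lower than the 531 and 467 CPM of lens cells.

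Genes that address macrophages and other immune cells were tested for 11 of 22, with 6 higher and 3 (Cxcl12, Cx3cl1 and Icam1) lower than in endothelial cells and 6 higher and 2 (Ccl2 and Cx3cl1) lower than in lens cells. Il34, a ligand of the receptor of macrophage colony-stimulating factor, was at 109 and 143 CPM in mural cells, with 0 UMIs in endothelial cells and macrophages and 0.238 and 0.299 CPM in lens cells. It was at least 107-fold higher than in endothelial cells and 481-fold higher than in lens cells. The receptor gene Csf1r was at 1394 and 1584 CPM in macrophages, and at 0 and 5.29 CPM in mural cells. Cxcl1, a chemokine that draws neutrophils, was 19.3-fold and 17.0-fold higher.

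Other signaling families split more evenly. Over all genes, 19.2% were higher and 17.2% lower than in endothelial cells, and 28.6% and 26.7% against lens cells. Of 30 genes of TGF-β and BMP signaling 23 were tested, with 8 higher and 10 lower than in endothelial cells and 11 higher and 6 lower than in lens cells. Id3, a target of BMP signals, was at 2987 and 2735 CPM in mural cells, against 1056 and 1175 CPM in endothelial cells and 761 and 821 CPM in lens cells. Of 22 Wnt and Norrin genes 17 were tested, with 6 higher and 4 (Fzd4, Lef1, Tcf7 and Apcdd1) lower than in endothelial cells and 10 higher and 4 (Fzd1, Fzd2, Sfrp1 and Wnt7b) lower than in lens cells. Of 11 genes of the insulin-like growth factor axis 10 were tested, with 4 (Igf1, Igfbp2, Irs1 and Irs2) higher and 4 (Igf1r, Igfbp3, Igfbp4 and Insr) lower than in endothelial cells and 4 (Igf1, Igfbp2, Igfbp4 and Igfbp7) higher and 2 (Igf1r and Igfbp5) lower than in lens cells. Igfbp7, a secreted binding protein, was among the highest genes, at 4965 and 5928 CPM in mural cells, and did not differ from the 5475 and 6155 CPM of endothelial cells beyond the test (adjusted p = 0.78). Of 28 lipid and retinoid genes 16 were tested, with 8 higher and 4 lower than in endothelial cells and 11 higher and 5 lower than in lens cells. Fabp5, a fatty acid binding protein, was 29.9-fold and 2.57-fold higher. Rarres2 (chemerin, a chemoattractant) was at 130 and 139 CPM in mural cells, with 0 UMIs in endothelial cells.

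Adhesion molecules were tested for 33 of 41 genes, with 15 higher and 14 lower than in endothelial cells and 21 higher and 9 lower than in lens cells. Itga1, the α1 integrin that binds collagen IV, was at 1475 and 1511 CPM in mural cells, against 40.4 and 55 CPM in endothelial cells and 3.43 and 3.39 CPM in lens cells, 32.3-fold and 438-fold higher. Pcdh18, a protocadherin, was at 422 and 426 CPM in mural cells, against 1.35 and 0 CPM in endothelial cells and 4.25 and 4.94 CPM in lens cells. Ncam1, the neural cell adhesion molecule, was at 299 and 337 CPM in mural cells, against 7.4 and 5.89 CPM in endothelial cells and 195 and 193 CPM in lens cells. The connexins were divided, with Gjc1 (connexin 45) at 639 and 688 CPM in mural cells, against 75.3 and 60.9 CPM in endothelial cells, and Gja1 (connexin 43) at 1.71 and 3.97 CPM in mural cells, against 248 and 286 CPM in endothelial cells and 77.5 and 71.0 CPM in lens cells.

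The 20 genes with the largest smaller fold against both classes were led by genes of these groups. Besides those already given, they included Lgi1 at 106 and 135 CPM, a secreted protein known from neurons, Fabp7 at 185 and 122 CPM, a fatty acid binding protein known from glia, and Fam162b at 318 and 311 CPM in mural cells. They also included Htr1b at 85.5 and 63.5 CPM, a serotonin receptor, Pde3a at 138 and 130 CPM, a phosphodiesterase of cyclic nucleotides, and Enpep at 101 and 93.9 CPM, an aminopeptidase that cleaves angiotensin. Each of these 6 had 0 UMIs in endothelial cells. Atp13a5, a transporter that marks brain pericytes, was at 47.9 and 54.2 CPM in mural cells, also with 0 UMIs in endothelial cells. Ifitm1 was at 398 and 762 CPM. It belongs to a family of related genes, and whether reads were shared among them was not tested.

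The 10 genes that fell most against endothelial cells all had 0 UMIs in mural cells. They ran from Podxl, at least 92.5-fold lower, to the adhesion receptor Adgrl4, at least 239-fold lower, and included Rasip1, Icam2, Sox18 and Col15a1. Of 20 endothelial markers outside the gate, 19 were lower and 1 higher than in endothelial cells. The exception, Tm4sf1, was at 1048 and 1165 CPM in mural cells, against 496 and 528 CPM in endothelial cells and 1.39 and 1.13 CPM in lens cells. It made up more of the mural sum of the list (1932 and 2030 CPM) than all others. The defining markers Pecam1 and Cd34 were at 1.71 and 0 CPM and at 1.71 and 1.32 CPM in mural cells, against 409 and 411 CPM and 1078 and 977 CPM in endothelial cells.

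Mitosis genes were detected in fewer mural cells than endothelial or lens cells. With cells thinned to 1500 UMIs, which left out 6 and 7 mural cells, 17 of 165 mural cells in pool 1 (10.3%, exact 95% interval 6.12 to 16%) and 3 of 209 in pool 2 (1.44%, 0.297 to 4.14%) held at least 3 UMIs of 20 mitosis genes. Endothelial cells stood at 24.4% (19.4 to 29.9%) and 12.2% (8.05 to 17.5%), and lens cells at 19.1 and 23.0%. Unthinned, the shares were 9.94 and 1.85% of mural, 32.5 and 17.1% of endothelial and 28.8 and 37.1% of lens cells. The mural share was thus lowest in each pool, with an interval below the lens share in both pools and below the endothelial interval in both. For 19 S phase genes, of which 18 could be tested, 1 (Mcm6) was called higher and 4 (Mcm2, Pcna, Uhrf1 and Dut) lower than in endothelial cells by edgeR, and DESeq2 called 0 and 1. Against lens cells 1 (Mcm6) was higher and 13 were lower by edgeR, and DESeq2 called 1 and 7. Over all genes edgeR called 17.2% lower than in endothelial cells and 26.7% lower than in lens cells. For the S phase list the thinned shares were 17.0% (11.6 to 23.6%) and 3.35% (1.36 to 6.78%) of mural cells, 22.5 and 13.7% of endothelial cells and 21.4 and 26.6% of lens cells. The intervals cover counting error among cells, not differences between pools, and free RNA in the droplets adds to such counts in every class.

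In the sums, 6 of 20 mitosis genes were lower and 0 higher than in endothelial cells by edgeR (8 and 0 at an unadjusted p below 0.05, 2 and 0 by DESeq2), and 16 were lower and 0 higher than in lens cells (17 and 0 unadjusted, 10 and 0 by DESeq2). The backgrounds of lower genes were 17.2% and 26.7%. Median log2 fold changes were −0.81 and −1.11. The summed list was at 1364 and 274 CPM in mural cells, against 1748 and 844 CPM in endothelial cells and 1387 and 1539 CPM in lens cells. In the sums, mural cells were thus close to lens cells in pool 1 and far below them in pool 2. Top2a, the topoisomerase of dividing cells, was at 169 and 34.4 CPM in mural cells, against 166 and 87.4 CPM in endothelial cells and 199 and 212 CPM in lens cells. Its log2 fold change against lens cells was −1.32 over both pools, −2.84 in pool 2 alone and −0.48 in pool 1 alone. Mki67, the proliferation antigen, gave −1.04 over both pools against lens cells, −2.68 in pool 2 alone and −0.16 in pool 1 alone. Against endothelial cells Mki67 gave −1.0 over both pools, −2.09 in pool 2 alone and −0.48 in pool 1 alone. The differences of Top2a from lens cells and of Mki67 from both classes were thus larger in pool 2. Cdc20, an activator of mitotic exit, was at 23.9 and 3.97 CPM in mural cells, against 90.8 and 36.3 CPM in endothelial cells and 41.3 and 45.8 CPM in lens cells, below both in each pool.

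Genes that restrain the cycle or act in cell death were split, with 3 (Cdkn2a, Btg2 and Bax) higher and 6 lower of 21 tested against endothelial cells and 7 higher and 5 lower against lens cells. The backgrounds over all genes were 19.2% higher and 17.2% lower against endothelial cells, and 28.6% and 26.7% against lens cells. Cdkn2a, whose Arf product is known in the mouse to restrain Pdgfrb in mural cells of the hyaloid vessels, was picked after its values were seen. It was at 35.9 and 48.9 CPM in mural cells (21 and 37 UMIs), against 0 and 0.982 CPM in endothelial cells and 0.714 and 0.897 CPM in lens cells, a ratio of 108 to endothelial cells (95% counting interval 18.7 to 4351) and 54.1 to lens cells. Immediate early and heat shock genes, which dissociation can induce, split 8 higher and 7 lower against endothelial cells and 12 higher and 9 lower against lens cells, of 23 tested. Fos was at 2087 and 2285 CPM in mural cells, 1197 and 1349 CPM in endothelial cells and 3395 and 2952 CPM in lens cells. Hspb1, a small heat shock protein, was at 392 and 358 CPM in mural cells, against 37.0 and 84.5 CPM in endothelial cells and 2.76 and 2.71 CPM in lens cells.

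Lens RNA was present in mural cells at a low level. Of 22 tested lens markers outside the gate, 21 were lower and 1 higher than in lens cells (median log2 fold change −4.63), and 2 (Crybb2 and Wfdc1) were higher and 1 (Gja3) lower than in endothelial cells. The higher one against lens cells was Wfdc1, at 8.55 and 13.2 CPM in mural cells and only 0.0877 and 0.157 CPM in lens cells, so it did not mark lens cells here. The list of 24 summed to 1643 and 1649 CPM in mural cells, against 1557 and 1812 CPM in endothelial cells and 50181 and 43942 CPM in lens cells. Cryaa, a gate gene, was at 1004 and 870 CPM in mural cells, against 910 and 960 CPM in endothelial cells. Cryab, the other α-crystallin and a small heat shock protein that muscle also makes, was at 2436 and 2434 CPM in mural cells, against 1154 and 1209 CPM in endothelial cells and 39654 and 40951 CPM in lens cells. Of the α-crystallin UMIs, Cryab made up 70.8% (95% interval 68.8 to 72.8%) and 73.7% (71.9 to 75.4%) in mural cells, 55.9 and 55.7% in endothelial cells, 51.6 and 56.8% in lens cells and 59.8 and 55.4% in macrophages. The mural share was the highest in both pools. The gate limited the sum of both genes but not their ratio, and no test was made. Of the other crystallins, Crybb2 was called higher than in endothelial cells, at 44.5 and 51.6 CPM in mural cells, 32.3 and 28.5 CPM in endothelial cells and 806 and 617 CPM in lens cells (log2 fold change 0.76 ± 0.25, edgeR adjusted p = 0.02).

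**Figure D5:**
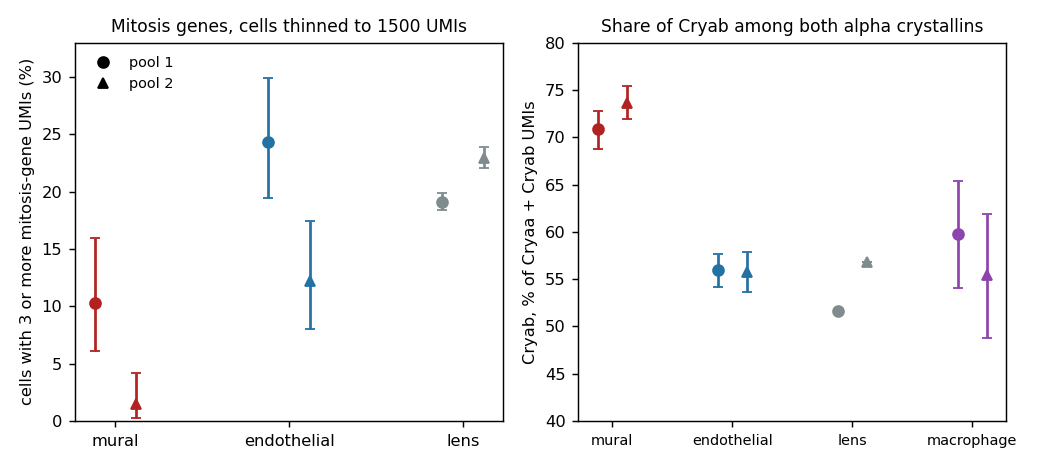
Left, percent of cells with at least 3 mitosis UMIs after thinning to 1500 UMIs in mural, endothelial and lens cells of each pool, with exact 95% intervals. Right, Cryab as a percent of Cryaa and Cryab UMIs in mural, endothelial and lens cells and macrophages, at 70.8 and 73.7% in mural cells and at most 59.8% in the other classes.

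Among the mural cells themselves, the genes at 200 CPM or more with the largest excess of variance over counting noise in both pools were Hmgb2, Tagln, Gadd45g, Xist, Acta2, Adamts1, Foxq1, Gadd45b, Mt1 and Klf2. Acta2 UMIs were found in 94 of 171 cells in pool 1 and 105 of 216 in pool 2, and the 10% of cells with the most held 49.0 and 60.7% of them. Tagln was found in 88 and 78 cells, and the top 10% of cells held 56.1 and 66.0%. Acta2 and Tagln varied together across cells, with Pearson correlations of 0.66 in both pools, and each with Myl9 less strongly (0.46 and 0.38 for Acta2, 0.41 and 0.35 for Tagln). Hmgb2, a chromatin protein of dividing cells, was found in 44 and 68 cells and varied with Top2a at correlations of 0.72 and 0.33. Acta2 and Hmgb2 had correlations of 0.05 and −0.12. These correlations are across 171 and 216 cells that share a library and a depth range, and are a description.

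The pools agreed closely in most mural genes. Of 781 genes at 200 CPM or more, 6 differed by over 2-fold between the pools, and the median fold was 1.11. Of the 6, Gm42418, Lars2 and AY036118 differed by over 2-fold in the same direction in endothelial and lens cells as well. Apoe differed there in the same direction by less, and Hmgb2 did so in endothelial cells only. Tuba1b did so in endothelial cells, at 422 and 263 CPM, and was nearly level in lens cells, at 566 and 562 CPM. In mural cells, Hmgb2 was at 337 and 157 CPM and Tuba1b at 552 and 259 CPM. Apoe, the apolipoprotein that macrophages carry at 32486 and 45391 CPM here, was at 176 and 422 CPM in mural cells. Of the members, 2 had any C1q UMI and 1 of them had 14. Without that member, which was singled out after its values were seen, Apoe in pool 2 was at 338 CPM and the summed macrophage markers at 17.3 CPM instead of 100 CPM.

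Markers of further cell types were near 0 in mural cells. Summed macrophage markers stood at 13.7 and 100 CPM in mural cells, against 40420 and 45742 CPM in macrophages. Melanocyte and pigment epithelium markers were at 6.84 and 9.26 CPM, erythroid markers at 12 and 11.9 CPM, and neuron, retina and glia markers at 15.4 and 2.64 CPM. The libraries shared 27 cell barcodes, and 0 members of the 2 pools had the same one. Of the members, 10 were among the 8% of barcodes with the highest doublet scores of their pool.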

How the data were processed

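The authors loaded cells dissociated from the lens capsules of 2 pools on a droplet platform (10x Genomics 3′ chemistry). They processed the reads with Cell Ranger 6.1.1 (the version in the header of a deposited matrix) against mm10, per the labels. The deposited matrices hold raw UMI counts, whole numbers for 32285 genes, with 93839132 UMIs in pool 1 and 86033032 in pool 2 and no cell annotation. Here barcodes between the 2nd and 97th percentiles of UMIs (949 to 20198) and of genes (446 to 4261), with at most 15% mitochondrial UMIs, were kept and gated as described in the report. The gate, the gene lists and the tests were chosen with earlier results of these data known.

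Counts were summed per pool and class and tested with edgeR 4.0.16 in R 4.3.3 (TMM, filterByExpr, glmQLFit and glmQLFTest) over 6 sums, with Benjamini-Hochberg adjustment over 10245 genes. The pool was a block, since the classes of a pool come from the same animals and the same library. The test was tried on simulated data of 9372 genes. Against endothelial cells it called 50 of 50 genes raised 4-fold and 38 of 50 raised 2-fold. It called 50 of 50 lowered 4-fold, 30 of 50 lowered 2-fold and 7 of 9172 unchanged genes. The simulated classes shared a profile apart from the changed genes, with a fixed spread and no difference between pools. DESeq2 1.42.0 was an alternative, beside other scalings, no filter, no block, subtraction of free lens RNA, other gate limits, removal of barcodes with high doublet scores (scanpy 1.11.5) and leaving out a pool. Removal of the member with over 4 C1q UMIs was added after the data were seen. No doublet caller was applied to the members otherwise.

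Genes were named by rule: the gate genes and given markers, the 20 largest rises against both classes at 50 CPM or more, the 10 largest falls against endothelial cells, the 5 highest members of each list with pair partners, and the 10 most variable genes. Other list members were named after their values were seen, and some genes the rule picked are not reported here. Shares have exact binomial intervals, and thinning drew 1500 UMIs per cell without replacement. Promoter windows are from RefSeq (GRCm38.p6).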

Additional observations from a re-analysis of the deposited data

Results flagged for a closer look

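Among kept barcodes, 50 had at least 10 Rgs5 UMIs but were left out by the other limits of the gate. Of these, 43 were over the crystallin limit only, 5 were over the endothelial limit only and 2 were over both. The 43 had a median of 9562 UMIs, against 3342 and 3457 in the mural cells of pool 1 and pool 2, and a median α-crystallin share of 4.79%. They belonged to none of the classes compared, which the limits on Rgs5 fixed.

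A further 31 barcodes with at least 10 Rgs5 UMIs lay outside the depth or mitochondrial limits, 23 of them over the upper UMI or gene limit. Their median was 21019 UMIs, with a median α-crystallin share of 2.28%. Whether these 31 and the 50 above held RNA of more than 1 cell was not tested.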

How the results depend on the processing

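The counts of genes kept within 1.5 times of their values under all alternatives run for them. Higher and lower than endothelial cells, they were 1700 and 1361 with DESeq2, 1992 and 1768 with no low-count filter (21208 genes tested) and 1851 and 1947 without TMM. Against lens cells they were 2621 and 2036, 2859 and 3568, and 3333 and 2232. The fit without the block for pool gave 1932 and 1683 against endothelial cells, 2888 and 2654 against lens cells, and 1296 against both. The median of all genes against lens cells moved by 0.16 (log2) without TMM and by −0.13 with no filter. The share of mural cells was 1.64 to 1.93% over other gate limits and 2.04% of barcodes left after the highest doublet scores were removed. Of 341 fold changes past the test, 17 were no longer called with DESeq2, 13 without the block, 10 with free lens RNA subtracted and 7 without TMM. Leaving out a pool left no residual degrees of freedom, so it gave fold changes only: of 234 at 1 CPM or more in both classes and pools, 21 moved by over 1.5-fold. The log2 fold change of Ube2c, a mitosis gene, against lens cells was −0.91 with both pools and changed sign between the pools (−2.95 without replicate 1, 0.090 without replicate 2). The share was 1.48 to 2.54% with a pool left out. A level of 3 UMIs in mural cells corresponded to 5.13 CPM in pool 1 and 3.97 CPM in pool 2, and genes below it were not precise.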
